A study of Homo sapiens with 29 samples.

Results

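ID1, ID2, ID3, ID4, SMAD6, SMAD7, SMAD9, MSX1, MSX2 and BAMBI are genes known to respond to bone morphogenetic protein (BMP) signalling, and their transcripts were followed through 4 ways of inducing heart differentiation in human embryonic stem cells. The set was chosen by gene name: every array probe that the platform's annotation assigns to one of these 10 symbols was taken, which gave 14 probes among the 30113 that carry 1 symbol, for 10 of 20046 genes. The cells were of the line HuES6, an established human embryonic stem cell line, as the label of the undifferentiated array states. Of the 29 arrays, 1 is of day 0 and 28 are of 4 induction arms followed over days 1, 2, 3, 4, 5, 6 and 8. In FBW the cells were given all 3 factors on day 0, namely 10 ng/ml of the growth factor FGF2, 1 ng/ml of BMP4, and 1 µM of the WNT activator, spelled CHIR00921 in the labels. The FB arm had no WNT activator, the BW arm no FGF2, and the FW arm no BMP4. All 4 arms are described with the same background treatment, which was insulin on day 0 with withdrawal from day 1, and the WNT secretion inhibitor IWP-2 at 2 µM on days 2 and 3. No arm had a second array for any day, so the days of a window serve as repeats and a p-value measures how steady a difference was over days, not how it would vary between separate cultures. The labels describe the FBW arrays of days 3 and 6 as shared with another series, and each result that rests on them is also given without them where it changes.

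BMP ligands bind serine/threonine kinase receptors that phosphorylate SMAD1, SMAD5 and SMAD9, and these enter the nucleus with SMAD4 and act on target genes. ID proteins are helix-loop-helix factors without a DNA-binding region that hold E proteins away from DNA. SMAD6 and SMAD7 are inhibitory SMADs, BAMBI is a membrane pseudoreceptor without a kinase domain, and all 3 dampen the pathway that raises them. MSX1 and MSX2 are homeobox repressors of mesoderm, neural crest and limb. In the embryo BMP signalling acts first in the formation of mesoderm and later in heart and surface ectoderm.

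SMAD proteins bind the short motif GTCT, or its complement AGAC, and BMP SMADs also bind the palindrome GGCGCC. The promoters of 4 members that stand for different patterns below are printed because the arms differed at these genes from day 1. Each is the RefSeq window of GRCh38.p14 from 250 bases before to 50 bases after the start of the gene, 5′ to 3′ on the gene's strand, with these 3 motifs in capitals. All 4 genes lie on the plus strand, ID1 at chr20:31605039-31605338, BAMBI at chr10:28677271-28677570, MSX2 at chr5:174724332-174724631 and MSX1 at chr4:4859415-4859714.
ID1: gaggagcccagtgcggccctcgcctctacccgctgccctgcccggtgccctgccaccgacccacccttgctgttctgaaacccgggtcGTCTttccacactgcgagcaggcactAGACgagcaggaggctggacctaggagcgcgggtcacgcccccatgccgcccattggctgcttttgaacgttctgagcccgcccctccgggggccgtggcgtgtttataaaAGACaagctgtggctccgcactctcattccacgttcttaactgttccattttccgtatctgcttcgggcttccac
BAMBI: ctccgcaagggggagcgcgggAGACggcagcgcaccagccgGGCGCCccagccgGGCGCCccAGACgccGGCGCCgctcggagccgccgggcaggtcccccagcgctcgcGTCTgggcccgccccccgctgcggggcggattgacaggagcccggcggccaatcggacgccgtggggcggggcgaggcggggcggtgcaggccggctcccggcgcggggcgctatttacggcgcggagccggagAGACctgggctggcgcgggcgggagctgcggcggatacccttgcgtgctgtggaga
MSX2: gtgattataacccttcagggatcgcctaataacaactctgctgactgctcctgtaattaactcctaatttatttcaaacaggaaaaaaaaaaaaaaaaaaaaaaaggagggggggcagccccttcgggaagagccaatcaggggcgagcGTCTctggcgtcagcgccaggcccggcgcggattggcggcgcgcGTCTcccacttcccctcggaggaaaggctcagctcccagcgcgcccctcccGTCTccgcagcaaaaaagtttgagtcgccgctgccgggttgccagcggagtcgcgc
MSX1: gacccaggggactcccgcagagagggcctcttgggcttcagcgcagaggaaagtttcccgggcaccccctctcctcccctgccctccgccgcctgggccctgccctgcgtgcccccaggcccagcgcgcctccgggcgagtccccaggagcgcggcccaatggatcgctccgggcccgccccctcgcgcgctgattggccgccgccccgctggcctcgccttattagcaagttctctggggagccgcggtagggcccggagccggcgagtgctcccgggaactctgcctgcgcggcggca
BAMBI's window held GGCGCC 3 times and GTCT or AGAC 4 times. ID1 and MSX2 held GTCT or AGAC 3 times each and MSX1 held none of these letters. The 10 genes have 12 such windows in RefSeq, as SMAD7 has 3 start sites. GGCGCC occurred in BAMBI's window and in no other of the 12. Over all 35116 promoter windows, 19.2% held GGCGCC and 0.871% held it at least 3 times, while 84% held GTCT or AGAC and 30.5% held them at least 3 times. TATAAA, read on both strands, was found in ID1, where matches on the 2 strands overlap at positions -33 and -31, in ID4 at position -29 and in 1 window of SMAD7, against 11.5% of all windows. A match of letters is a description of the window and not a bound site.

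Between 16218 and 18796 of 47323 probes were detected per array, which means a detection p below 0.01, and raw medians lay between 94.78 and 110.0. Values below are normalised log2 signals of the brightest probe of a gene, so that 1 unit is a 2-fold difference, and no probe's level is set against another probe's. ID1, ID2, SMAD7 and SMAD9 have a second probe, and over the 29 arrays the second followed the first with r of 0.871, 0.978, 0.877 and 0.891. The pluripotency markers POU5F1, NANOG, SOX2 and PRDM14 were all detected on day 0. On days 4 to 8 the summed signal of 4 heart muscle markers was 1890 to 35300 in FBW, 310 to 24900 in BW, 121 to 1000 in FB and 101 to 242 in FW. ACTN2, which is among them, was not detected in FB or FW on these days. Bulk arrays cannot tell fewer cells of a type from less RNA per cell.

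**Figure D1:**
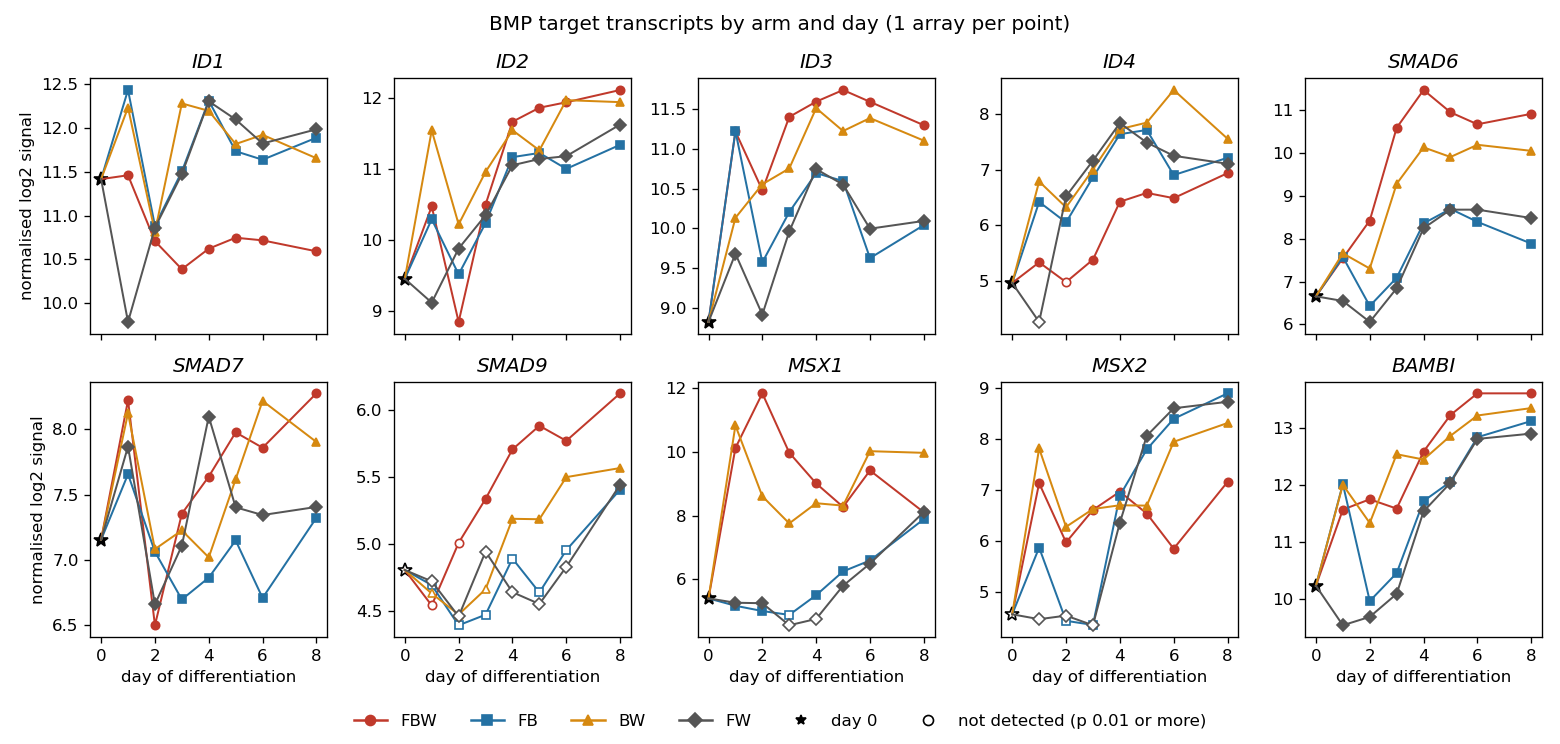
Normalised log2 signal (vertical axis, own scale for each gene) of the 10 transcripts by day of differentiation (horizontal axis), with 1 array per point, colours and shapes for the 4 arms, a star for day 0 and open symbols where the probe was not detected. FW is lowest on day 1 for ID1 at 9.79 and BAMBI at 9.54, FBW stands apart below the other arms for ID1 from day 3, and MSX1 separates FBW and BW from FB and FW up to day 6.

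On the first day after induction, most of these transcripts were higher than on day 0 in the arms that had received BMP4, and none was 2-fold higher in the arm that had not. In BW, 7 of the 9 members detected on either array were at least 2-fold above day 0 (3.38% of all genes), namely ID2, ID3, ID4, SMAD6, MSX1, MSX2 and BAMBI. In FBW 6 members were (2.42% of all genes), namely ID2, ID3, SMAD7, MSX1, MSX2 and BAMBI. In FB 5 members were (1.56% of all genes), namely ID1, ID3, ID4, MSX2 and BAMBI, but only 2 were with quantile normalisation without background correction. ID1 reached 2.02-fold in FB by its brightest probe only. Its second probe fell, from 7.63 on day 0 to 7.09 in FB, 6.47 in BW and 5.91 in FBW on day 1. In FW 0 of 8 members were (1.88% of all genes), and 1 member, ID1, was at least 2-fold lower (3.53% of all genes). With 1 array on each side these are folds with no test. MSX2 was not detected on day 0, and its rise was at least 4.62-fold in FBW and 7.41-fold in BW, but only at least 1.92-fold in FB. SMAD9 was detected on none of the arrays of days 0 and 1 and was not counted.

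**Figure D2:**
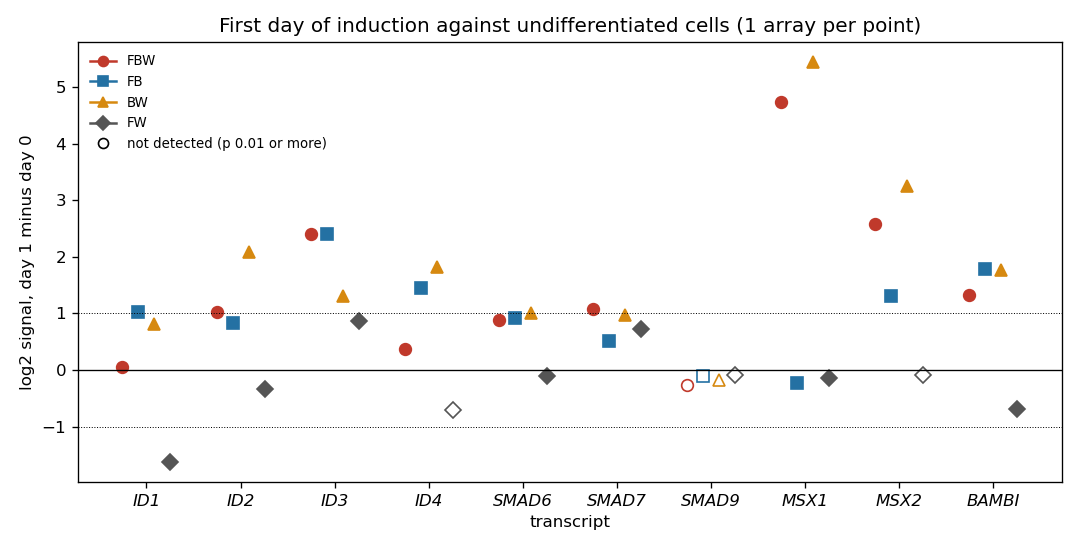
Log2 signal on day 1 minus that on day 0 (vertical axis) for each transcript (horizontal axis) in the 4 arms, with 1 array on each side, dotted lines at 2-fold and open symbols where the transcript was not detected on day 1. FW lies at or below 0.86 for all 10 transcripts, while MSX1 is up by 4.73 in FBW and 5.44 in BW.

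FW was the lowest of the 4 arms on day 1 for 7 of 9 members, ID1, ID2, ID3, ID4, SMAD6, MSX2 and BAMBI, and for 23.6% of all genes. In 5 of these (3 with quantile normalisation without background correction), ID1, ID2, ID4, MSX2 and BAMBI, each of FBW, FB and BW read at least 2-fold above FW, as did 23 of 11555 genes (0.199% of all genes). ID4 and MSX2 were not detected in FW, so their folds are bounds: ID4 was at least 1.23-fold higher in FBW, 2.62-fold in FB and 3.37-fold in BW, and MSX2 at least 4.30-fold, 1.79-fold and 6.90-fold. With FW held at its lowest detected signal where a gene was not above background, 16 of the 23 genes kept the 2-fold difference in all 3 arms, and 3 of them were members, ID1, ID2 and BAMBI. BAMBI was 4.07-fold higher in FBW than in FW, 5.55-fold in FB and 5.50-fold in BW. ID1 was 3.19-fold higher in FBW, 6.25-fold in FB and 5.44-fold in BW. SMAD6 lay at the 2-fold line, with 2.00-fold in FBW, 2.04-fold in FB and 2.16-fold in BW. The description over all 3 BMP4 arms was added after the data had been seen.

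**Figure D3:**
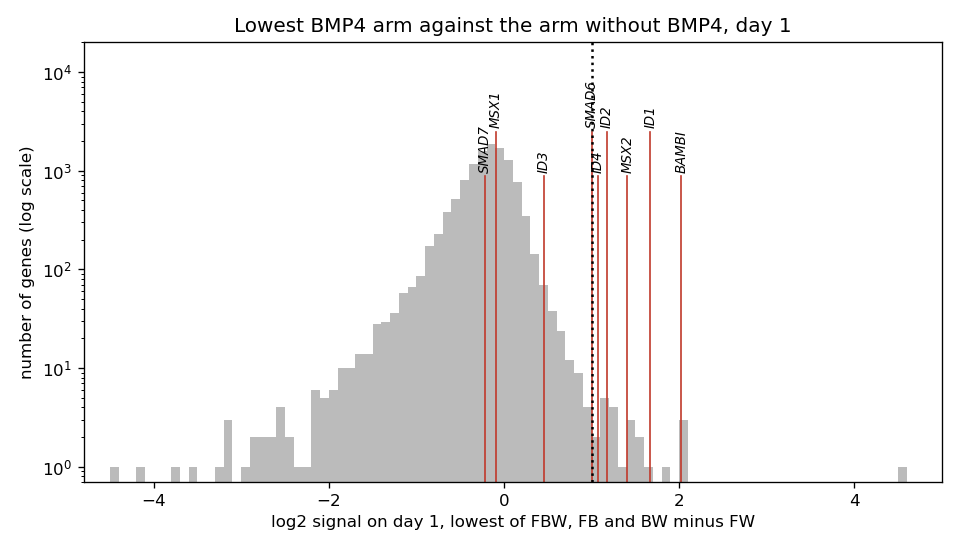
Distribution over 11555 genes (vertical axis, number of genes on a log scale) of the day 1 log2 signal of the lowest of FBW, FB and BW minus that of FW (horizontal axis). Red lines mark 9 members, the dotted line marks 2-fold, and BAMBI at 2.02 and ID1 at 1.67 lie in the right tail while MSX1 at -0.10 and SMAD7 at -0.21 lie near the middle.

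The 18 other genes of that group, named after their values were seen, were TFAP2A, PTH1R, SAMD11, COL9A2, CBLN1, HAND1, CRIP2, FGFR3, SYNDIG1, AHNAK, GATA5, COCH, EBF3, PRKD1, TMEM54, PTCHD1, CDH6 and LRP4. TFAP2A, a transcription factor of surface ectoderm, stood first: it read 9.16 in FBW, 9.36 in FB and 11.27 in BW against 4.59 in FW, where it was not detected, so that it was at least 17.5-fold higher in each. PTH1R, the parathyroid hormone receptor, read 8.05, 7.61 and 9.69 against 5.58 in FW.

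From day 2 on the FB and FW arms, which differ in whether BMP4 or the WNT activator was given beside FGF2, came close for these genes. On day 1 the absolute difference between FB and FW had a median of 1.41 over the members, with 7 members at 2-fold or more, against 1.27% of all genes. With each undetected signal held at the lowest detected signal of its array, a value added after seeing the data, the median was 1.17 and 6 members reached 2-fold, against 0.911% of all genes, since MSX2 was not detected in FW. On days 2, 3, 4, 5, 6 and 8 that median was 0.37, 0.25, 0.18, 0.23, 0.21 and 0.14, and 1 member reached 2-fold on one of those days, SMAD7 on day 4 (0.575% of all genes). The share of all genes at 2-fold ran from 0.335% to 0.631% over these days. SMAD7 read 6.86 in FB and 8.10 in FW on day 4, but 7.27 and 7.62 by its second probe, which is under 2-fold. Over all genes the median absolute difference was 0.18 on day 1 and 0.14 to 0.17 later.

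The ID genes split into different time courses. ID1, the most studied early BMP target, read 11.42 on day 0. In FBW it read 11.46, 10.71, 10.39, 10.62, 10.75, 10.72 and 10.59 on days 1, 2, 3, 4, 5, 6 and 8. In FW it read 9.79, 10.86, 11.47, 12.30, 12.10, 11.82 and 11.98. FBW was thus lowest from day 2, while FW was lowest on day 1. FB had 12.43, 10.88, 11.50, 12.31, 11.73, 11.64 and 11.89, and BW 12.23, 10.81, 12.28, 12.19, 11.82, 11.92 and 11.65. On days 4 to 8 the FBW arrays did not overlap those of any other arm. ID1 was higher than in FBW by 1.22 ± 0.11 in FB (SE, n = 4 days, limma adjusted p = 5.45e-06), by 1.23 ± 0.11 in BW (limma adjusted p = 3.05e-05) and by 1.38 ± 0.11 in FW (limma adjusted p = 1.81e-06), with 4 of 4 days in that direction in each. Earlier, on days 1 to 3, the corresponding differences were 0.75 ± 0.51, 0.92 ± 0.51 and -0.15 ± 0.51 and did not pass the threshold.

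ID4, the ID gene best known from neural tissue, went the same way as ID1 late. It read 4.96 on day 0 and, in FBW, 5.33, 4.98, 5.38, 6.42, 6.58, 6.49 and 6.94, with day 2 not detected. In BW it read 6.79, 6.32, 7.00, 7.73, 7.84, 8.43 and 7.55, above FBW on all 7 days. FB read 6.42, 6.05, 6.86, 7.64, 7.71, 6.90 and 7.21, and FW 4.26 on day 1, not detected, then 6.52, 7.16, 7.84, 7.49, 7.25 and 7.10. On days 4 to 8 ID4 was higher than in FBW by 0.76 ± 0.23 in FB (limma adjusted p = 0.0159), 1.28 ± 0.23 in BW (limma adjusted p = 0.00232) and 0.81 ± 0.23 in FW (limma adjusted p = 0.0104). Without day 4 or without day 5 the calls in FB and FW were lost, with adjusted p between 0.0604 and 0.118.

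ID2 and ID3 went the other way on days 4 to 8. ID2, an ID gene of many progenitors, read 9.45 on day 0 and, in FBW, 10.47, 8.85, 10.50, 11.67, 11.86, 11.94 and 12.11. BW read 11.54, 10.22, 10.96, 11.55, 11.26, 11.97 and 11.94. FB read 10.29, 9.52, 10.24, 11.17, 11.23, 11.00 and 11.34, and FW 9.12, 9.88, 10.35, 11.05, 11.14, 11.18 and 11.63. All 4 arms were higher on day 8 than on day 1. FB was lower than FBW by -0.71 ± 0.12 (limma adjusted p = 0.000411) and FW by -0.65 ± 0.12 (limma adjusted p = 0.000704), each on 4 of 4 days, while BW differed by -0.22 ± 0.12 (limma adjusted p = 0.208).

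ID3, often induced together with ID1, read 8.82 on day 0, its lowest value of the 29 arrays. In FBW it read 11.22, 10.48, 11.40, 11.59, 11.74, 11.59 and 11.30, and in BW 10.13, 10.55, 10.75, 11.51, 11.22, 11.39 and 11.10. In FB it was 11.22 on day 1, equal to FBW, and then 9.57, 10.20, 10.69, 10.59, 9.62 and 10.04. FW read 9.68, 8.91, 9.96, 10.74, 10.55, 9.99 and 10.09. From day 4 all FB and FW arrays lay below all FBW and BW arrays. ID3 was lower than in FBW by -1.32 ± 0.16 in FB (limma adjusted p = 3.22e-05) and by -1.21 ± 0.16 in FW (limma adjusted p = 5.10e-05), and differed by -0.25 ± 0.16 in BW (limma adjusted p = 0.263).

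SMAD6, the inhibitory SMAD most specific to the BMP branch, showed the widest separation of arms among the feedback inhibitors. It read 6.65 on day 0 and, in FBW, 7.54, 8.42, 10.59, 11.47, 10.95, 10.67 and 10.92. BW followed with 7.66, 7.30, 9.28, 10.13, 9.91, 10.19 and 10.05. FB read 7.57, 6.43, 7.09, 8.36, 8.70, 8.39 and 7.89, and FW 6.55, 6.06, 6.84, 8.24, 8.68, 8.68 and 8.48. On days 4 to 8 the 4 FBW arrays lay above those of BW, and those of BW above all of FB and FW. The late difference from FBW was -2.67 ± 0.18 in FB (6.36-fold, limma adjusted p = 4.48e-07), -2.48 ± 0.18 in FW (5.59-fold, limma adjusted p = 7.01e-07) and -0.93 ± 0.18 in BW (1.91-fold, limma adjusted p = 0.00328). Earlier, on days 1 to 3, it was -1.82 ± 0.53 in FB (limma adjusted p = 0.0811) and -2.37 ± 0.53 in FW (limma adjusted p = 0.0580).

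SMAD7, which inhibits both the BMP and the TGF-beta branch, kept to a range of 1.78 log2 units over the 29 arrays. It read 7.15 on day 0 and between 6.50 on day 2 and 8.28 on day 8 in FBW, between 6.69 and 7.66 in FB, between 7.02 and 8.22 in BW and between 6.66 and 8.10 in FW. It was lower late in FB by -0.93 ± 0.25 (limma adjusted p = 0.00778), and differed by -0.25 ± 0.25 in BW (limma adjusted p = 0.490) and -0.38 ± 0.25 in FW (limma adjusted p = 0.214). On days 1 to 3 its differences from FBW were -0.22 ± 0.22 in FB, 0.12 ± 0.22 in BW and -0.15 ± 0.22 in FW, and the second probe turned the sign in BW to -0.07. SMAD9, the third receptor-activated SMAD of the BMP branch, lay close to background and was detected on 11 of 29 arrays. In FBW it was detected from day 3 on, at 5.34, 5.71, 5.88, 5.77 and 6.13, and in BW from day 4 on, at 5.19, 5.19, 5.50 and 5.57. In FB and FW it was detected on day 8 alone among the arm's arrays, at 5.41 and 5.44. It was too dim early for a test, and late it was lower than in FBW by -0.90 ± 0.12 in FB (limma adjusted p = 8.58e-05), -1.01 ± 0.12 in FW (limma adjusted p = 3.14e-05) and -0.51 ± 0.12 in BW (limma adjusted p = 0.0101). The BW call was lost without day 5 (limma adjusted p = 0.0746) and with day left out of the model, that is with no replicate block (limma adjusted p = 0.102). SMAD9 had the 3 detected arrays needed for a test only through FBW and BW. Undetected days enter these values at background level, so the p-values in FB and FW largely set signal against background readings. Held at the lowest detected signal, the differences were -0.66 in FB and -0.69 in FW. By the second probe of SMAD9 the late differences were -1.45 in FB, -1.41 in FW and only -0.27 in BW, with no test. On day 6 that probe was higher in BW, at 6.13, than in FBW, at 5.95.

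BAMBI rose in every arm. It read 10.24 on day 0 and, in FBW, 11.57, 11.75, 11.58, 12.58, 13.22, 13.60 and 13.60. BW read 12.00, 11.33, 12.54, 12.44, 12.86, 13.21 and 13.35. FB was high on day 1 and low on day 2, with 12.02, 9.97, 10.46, 11.72, 12.06, 12.83 and 13.12. FW read 9.54, 9.69, 10.09, 11.54, 12.04, 12.80 and 12.90 and was the lowest arm on each of the 7 days. Late it was lower than in FBW by -0.82 ± 0.11 in FB (limma adjusted p = 5.27e-05, 0.0727 with no replicate block) and by -0.93 ± 0.11 in FW (limma adjusted p = 1.68e-05), and differed by -0.29 ± 0.11 in BW (limma adjusted p = 0.0613). Before that, on days 1 to 3, FW differed by -1.86 ± 0.42 (limma adjusted p = 0.0580) with 3 of 3 days lower.

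MSX1 had the largest range of the 10 transcripts over the 29 arrays, 7.29 log2 units, and in the first days it was high only where BMP4 and the WNT activator had both been given. It read 5.40 on day 0 and, in FBW, 10.13, 11.84, 9.98, 9.01, 8.27, 9.42 and 8.10. BW read 10.83, 8.61, 7.76, 8.39, 8.31, 10.03 and 9.97. FB read 5.17, 5.00, 4.88, 5.50, 6.25, 6.59 and 7.89, with day 3 not detected. FW read 5.26, 5.25, 4.55, 4.75, 5.80, 6.49 and 8.11, with days 3 and 4 not detected. FB and FW thus stayed near the day 0 level until day 4 and met FBW on day 8. On days 1 to 3 MSX1 was lower than in FBW by -5.63 ± 0.61 in FB (SE, n = 3 days, limma adjusted p = 0.0143) and by -5.63 ± 0.61 in FW (limma adjusted p = 0.0122). MSX1 was detected on 2 of 3 days in each of FB and FW, and with day 3 held at the lowest detected signal the fold was 48.6 in FB and 43.2 in FW. BW differed by -1.58 ± 0.61 (limma adjusted p = 0.343). Late the difference was -2.15 ± 0.49 in FB (limma adjusted p = 0.00295), -2.41 ± 0.49 in FW (limma adjusted p = 0.00123) and 0.47 ± 0.49 in BW (limma adjusted p = 0.501). Without the shared FBW arrays of days 3 and 6 the early differences were -5.65 in both arms, with adjusted p = 0.0615 and 0.0619.

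MSX2 crossed over. It was not detected on day 0 and read 7.14, 5.97, 6.61, 6.97, 6.54, 5.85 and 7.16 in FBW and 7.82, 6.28, 6.63, 6.70, 6.70, 7.95 and 8.32 in BW. In FB it was 5.87 on day 1, not detected on days 2 and 3, and then 6.89, 7.80, 8.40 and 8.90. In FW it was not detected on days 1, 2 and 3 and then read 6.36, 8.07, 8.61 and 8.74. From day 5 FB and FW thus lay above FBW, after lying below it on days 1 to 3. Early, the excess over FW came to at least 2.88-fold for FBW and 3.64-fold for BW (FW minus FBW -2.13 ± 0.30, limma adjusted p = 0.0354), and FB differed from FBW by -1.69 ± 0.30 (limma adjusted p = 0.0617). Late it was higher than in FBW by 1.37 ± 0.40 in FB (limma adjusted p = 0.0124) and 1.31 ± 0.40 in FW (limma adjusted p = 0.0141), on 3 of 4 days in each. The early FW call was lost without the FBW arrays of days 3 and 6 (limma adjusted p = 0.129). The late FW call was also lost without them (0.88, limma adjusted p = 0.0530), and both late calls were lost without day 5, 6 or 8, at 0.83 to 1.41.

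Counted over the 10 genes, the early window held few calls and the late window many. On days 1 to 3, 1 of 9 members tested passed in FB, MSX1 (0.243% of all genes), 0 passed in BW (0.00869% of all genes) and 2 passed in FW, MSX1 and MSX2 (0.912% of all genes). With array weights in the limma fit these counts were 5, 0 and 5, but 3648 genes in FB and 2639 in FW then passed. Without day 1 they were 6, 2 and 6, when 2757, 350 and 2757 genes passed in FB, BW and FW. Without day 2 or without day 3 they were 0 in each arm. In the mean of the 3 arms with BMP4 against FW, 0 members passed (0.00% of all genes) although 5 had an unadjusted limma p under 0.05, as did 14.5% of all genes. With array weights that count was 5, among 651 genes that passed, and without day 1 it was 6, among 647 genes. In this window MSX1 was 3.22 ± 0.50 higher in the BMP4 arms, MSX2 1.68 ± 0.25, BAMBI 1.69 ± 0.34, SMAD6 1.51 ± 0.43 and ID3 1.10 ± 0.26, each on 3 of 3 days and with a limma adjusted p of 0.151 to 0.241. MSX2 was detected on none of these FW arrays and MSX1 on 2 of them, and with undetected signals held as above the differences were 1.21 for MSX2 and 3.04 for MSX1. FB, which had BMP4, differed from FW in MSX1 by -0.10, -0.24 and 0.33 on days 1, 2 and 3. In MSX2 it differed by 1.41, -0.10 and 0.01, with FW undetected on all 3 days and FB on days 2 and 3. BAMBI, SMAD6 and ID3 were higher in FB than in FW on each of these days. The summed signal of 4 early mesoderm markers, TBXT, MIXL1, MESP1 and EOMES, was like MSX1 higher in FBW and BW on days 1 to 3. It was 2700 to 18100 in FBW, 1820 to 9910 in BW, 235 to 1630 in FB and 25.6 to 920 in FW. On day 0 it was 126, so it rose in FB, where MSX1 did not. On days 4 to 8 it was 17.2 to 50.1 in FB and 14.2 to 29 in FW, while MSX1 rose in both arms. MESP1 was not detected in FW on days 1 to 3, and the part of early mesoderm cells in the result was not tested.

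On days 4 to 8 all 10 members could be tested. In FB 10 of 10 passed, 3 higher and 7 lower (54.0% of all genes), in BW 4 passed, 2 higher and 2 lower (25.7% of all genes), and in FW 9 passed, 3 higher and 6 lower (57.9% of all genes). ID1 and ID4 were higher than in FBW in all 3 arms, and SMAD6 and SMAD9 lower in all 3. The limits on ID4 in FB and FW and on SMAD9 in each arm are given above. The 3 comparisons share the FBW arrays. The median absolute difference from FBW was 1.08 over the members in FB against 0.41 over all genes, 0.49 against 0.25 in BW and 1.11 against 0.44 in FW. In the mean of the BMP4 arms against FW 7 passed (35.4% of all genes): ID2, ID3, SMAD6, SMAD9, MSX1 and BAMBI were higher and ID1 was lower, by -0.57 ± 0.09 (limma adjusted p = 0.000946). FB alone was closer to FW than this mean for most of them. FB minus FW ran over these days from -0.29 to 0.11 for ID2, -0.37 to 0.04 for ID3 and -0.60 to 0.11 for SMAD6. It ran from -0.04 to 0.25 for SMAD9, -0.225 to 0.75 for MSX1, 0.02 to 0.22 for BAMBI and -0.36 to 0.01 for ID1. The ID2 call (limma adjusted p = 0.0197) was lost without day 4 or day 6 (limma adjusted p = 0.0735 and 0.0647) and, with no replicate block, at 0.0787. The BAMBI call was lost with no replicate block (limma adjusted p = 0.169). The summed signal of 6 surface ectoderm and amnion markers, TFAP2A, TFAP2C, DLX5, GATA3, KRT7 and GABRP, was 154 to 683 in FBW, 4450 to 10700 in FB, 3090 to 5840 in BW and 3290 to 9600 in FW on these days. All 6 were detected in FB, BW and FW, and DLX5 and KRT7 were not detected in FBW. TFAP2A, DLX5 and GATA3 also belong to the list of BMP-responsive transcription factors below. The summed signal of the 4 pluripotency markers was 18 to 190 in FBW, where NANOG and PRDM14 were not detected, 702 to 4880 in FB, 610 to 2150 in BW and 828 to 5280 in FW, against 9830 on day 0. Of 4 endothelial markers, PECAM1, CDH5, TEK and CD34, all were detected in FBW and BW, but PECAM1 and CDH5 were not in FB or FW. Their summed signal was 79.3 to 1570 in FBW, 181 to 1260 in BW, 162 to 573 in FB and 184 to 682 in FW. On these days ID1, ID4, the ectoderm sum and the pluripotency sum were all lowest in FBW. On day 0, however, ID1 read 11.42 while the ectoderm sum was 498. MSX2 was higher late in FB and FW but not called in BW (0.79 ± 0.40, limma adjusted p = 0.167). The heart muscle sum given above reached higher values in FBW and BW than in FB and FW. The late means of ID2, ID3, SMAD6, SMAD7, SMAD9, MSX1 and BAMBI were also higher in FBW and BW. The part of any of these cell types in the results was not tested.

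**Figure D4:**
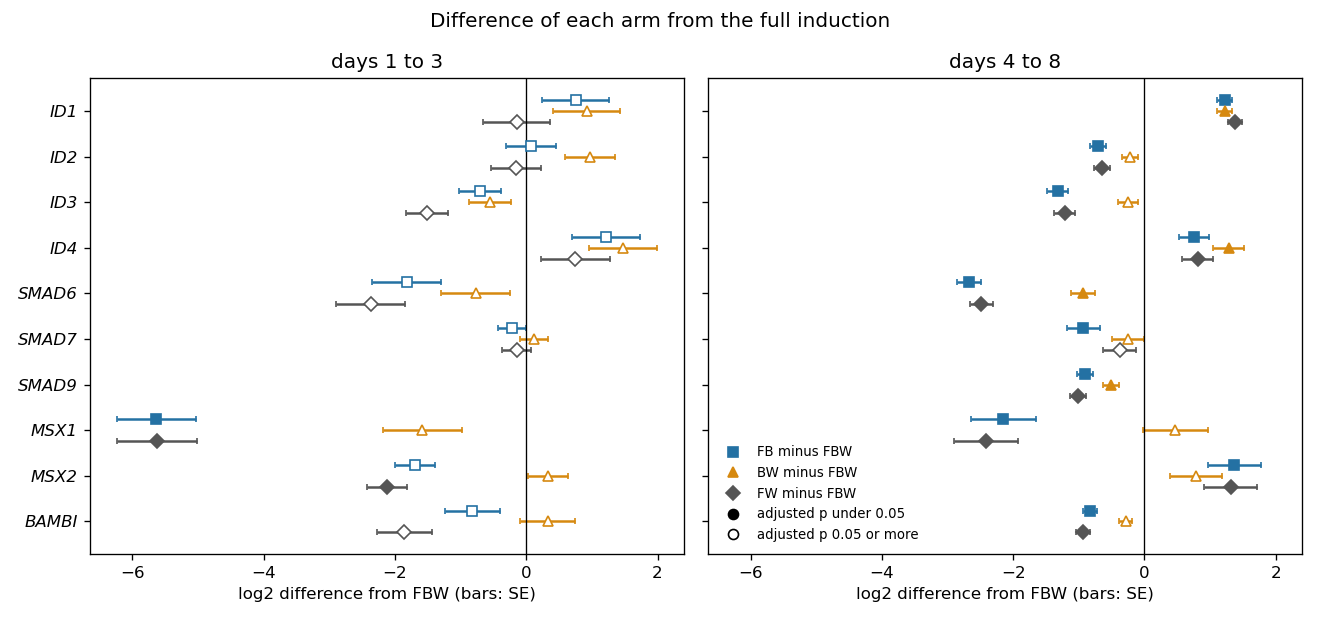
Log2 difference of FB, BW and FW from FBW (horizontal axis) for each transcript (vertical axis) on days 1 to 3 (left) and days 4 to 8 (right), with standard errors as bars and filled symbols where the limma adjusted p was under 0.05. MSX1 in FB and FW lies at -5.63 on the left and at -2.15 and -2.41 on the right, and MSX2 moves from the lower side to the higher side.

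Whether an arm difference changed between the windows was tested directly in 1 limma fit over 28 arrays, which was added after the data had been seen. In FB 2 members changed, MSX1 and MSX2 (11.4% of all genes), and in FW 4 changed, ID1, SMAD9, MSX1 and MSX2 (13.9% of all genes). In BW 0 members changed (0.869% of all genes), and the lowest limma adjusted p among them was 0.147, for ID2. The late minus early change of MSX2 was 3.06 ± 0.57 in FB (limma adjusted p = 0.00344) and 3.44 ± 0.57 in FW (limma adjusted p = 0.00114), and that of MSX1 was 3.49 ± 0.83 in FB (limma adjusted p = 0.0133) and 3.22 ± 0.83 in FW (limma adjusted p = 0.0166). ID1 changed in FW by 1.53 ± 0.50 (limma adjusted p = 0.0479). Because MSX2 was undetected on all 3 early FW arrays and on 2 of 3 in FB, its exact change depends on background signal. Held at the lowest detected signal, the change of MSX2 was 2.66 in FB and 2.84 in FW, with no test. Leaving out any 1 of the 7 days kept the MSX2 calls in both arms, whereas the ID1 call was lost without any 1 day except day 3. The MSX1 call was lost in FB without day 2 or 5 (limma adjusted p = 0.0939 and 0.0517) and in FW without day 2, 5, 6 or 8 (limma adjusted p of 0.0529 to 0.103). The SMAD9 call in FW was lost without day 1, 2, 5 or 6 (limma adjusted p of 0.0633 to 0.110). SMAD9 was detected on 0 of 3 early FW arrays and on 1 late FW array, so its change also depends on background signal. Held at the lowest detected signal it was -0.61, with no test.

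Over the whole course, with the 4 arms as repeats, 6 of 10 members were higher on day 8 than on day 1 and 0 were lower (51.4% of all genes, in either direction). SMAD6 was higher by 2.00 ± 0.36 (SE, 4 arms, limma adjusted p = 9.37e-05), BAMBI by 1.96 ± 0.34 (limma adjusted p = 6.43e-05), MSX2 by 1.96 ± 0.71 (limma adjusted p = 0.0252), ID4 by 1.501 ± 0.353 (limma adjusted p = 0.00133), ID2 by 1.40 ± 0.29 (limma adjusted p = 0.000489) and SMAD9 by 0.99 ± 0.18 (limma adjusted p = 9.65e-05), each in 4 of 4 arms. SMAD9 was detected on no array of day 1, and held at the lowest detected signal it was 0.55 higher on day 8. ID1 differed by 0.05 ± 0.38 and ID3 by 0.07 ± 0.27. For ID1 the FW arm alone gained 2.20, and without that arm it fell by 0.66 (limma adjusted p = 0.0405). MSX2 gained only 0.02 in FBW. It missed the threshold without FB or without FW (limma adjusted p = 0.144 and 0.205) and with only the arrays compared (limma adjusted p = 0.0897).

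The pattern in which FBW and BW, the arms with both BMP4 and the WNT activator, each stood 2-fold or more above FB and FW was met by different members over time. On day 1 it held for MSX1 and MSX2 and for 0.260% of all genes. On day 2 it held for MSX1, MSX2 and BAMBI (1.64% of all genes) and on day 3 for SMAD6, MSX1, MSX2 and BAMBI (2.38% of all genes). On days 4 and 5 it held for SMAD6 and MSX1 (2.65% and 2.87% of all genes), on day 6 for ID3, SMAD6 and MSX1 (3.92%) and on day 8 for ID3 and SMAD6 (4.94%). ID1, ID2, ID4, SMAD7 and SMAD9 did not meet it on any day. MSX2 was not detected in FB or FW on days 2 and 3, and with undetected signals held at the lowest detected one it no longer met the pattern on day 2 but did on day 3.

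The wider BMP pathway was read from 62 genes in 7 lists, of which 59 had a probe. On days 1 to 3, 40 of them were tested and 0 passed in FB and BW, while 1 passed in FW, HAND1, a transcription factor of cardiac and extraembryonic mesoderm, which was lower by -6.08 ± 1.07 with 1 of 3 FW days detected (limma adjusted p = 0.0484, 51.4-fold with the other days held at the lowest detected signal). On days 4 to 8, 46 were tested: 9 were higher and 14 lower in FB (50% of the 46), 5 higher and 6 lower in BW (23.9%), and 11 higher and 14 lower in FW (54.3%), shares close to those of all genes. Among the ligands, BMP5 was lower in FB, where it was detected on 1 of 4 days (limma adjusted p = 4.48e-07, 46.9-fold with the other days held at the lowest detected signal), and in BW by -3.13 ± 0.40 (limma adjusted p = 0.000263), and at least 51.1-fold lower in FW, where it was not above background (limma adjusted p = 2.22e-07). BMP2, known from cardiac induction in the embryo, was lower by -2.78 ± 0.42 in FB (limma adjusted p = 0.000168) and -2.997 ± 0.415 in FW (limma adjusted p = 8.28e-05). On day 8 BMP2 read 10.04 in FBW, 8.39 in BW, 5.24 in FB and 5.63 in FW.

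Among 7 receptors tested, BMPR2, the type II receptor of BMPs, was lower late in all 3 arms, by -0.84 ± 0.16 in FB, -0.63 ± 0.16 in BW and -1.06 ± 0.16 in FW (limma adjusted p = 0.000895, 0.0139 and 0.000162). Of 9 secreted antagonists tested, 2 were higher and 4 lower in FB and likewise in FW. BMPER, a secreted BMP-binding protein, was at least 38.7-fold lower in FW, where it was not above background (limma adjusted p = 1.31e-07). It was also lower in FB, where it was detected on 1 of 4 days (limma adjusted p = 3.65e-07, 29.8-fold with the other days held likewise). GREM1, which binds BMPs and was not above background in FBW, was at least 2.51-fold higher in FB (limma adjusted p = 0.00149) and at least 2.09-fold higher in FW (limma adjusted p = 0.00405). Of 10 other BMP-responsive transcription factors, 4 were higher and 3 lower in FB. TBX2, a T-box repressor of cardiac chamber boundaries, was not above background in FB or FW. It was at least 32.5-fold lower in FB and at least 33.5-fold lower in FW than in FBW (limma adjusted p = 2.67e-08 and 1.93e-08). DLX5, a homeobox factor of surface ectoderm and bone, was not above background in FBW. It was at least 41.6-fold higher in FB, 13.6-fold in BW and 41.1-fold in FW (limma adjusted p = 3.07e-06, 0.000209 and 2.67e-06). The p-values beside such bounds set signal against background readings and do not test the bound. The transducers moved less: 1 of 5 passed in FB, SMAD3, at -0.89 ± 0.25 (limma adjusted p = 0.00912), and SMAD3 belongs to the TGF-beta branch. Of the 3 E proteins, partners of the ID proteins, TCF3 was higher in FB by 0.35 ± 0.09, in BW by 0.31 ± 0.09 and in FW by 0.37 ± 0.09 (limma adjusted p = 0.00513, 0.0216 and 0.00296). TCF12 went the other way, by -0.52 ± 0.12 in BW and -0.40 ± 0.12 in FW (limma adjusted p = 0.0102 and 0.0161).

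The members followed one another to different degrees over the 29 arrays, which share arms and neighbouring days. Among all pairs Pearson's r was highest for ID2 with BAMBI at 0.836 and ID3 with SMAD6 at 0.824, and lowest, at -0.254, for ID1 with SMAD9. Each pair among ID2, ID3, SMAD6, SMAD9 and BAMBI had an r of at least 0.570. The gene most like ID1 among 12711 was TFAP2A at 0.814, that most like MSX1 was LEF1, a nuclear factor of WNT signalling, at 0.891, and that most like BAMBI was PTH1R at 0.907. For SMAD6 it was ZC3H12B at 0.954, for SMAD9 CAP2 at 0.953, for ID2 PKP2 at 0.862, for MSX2 EFNA1 at 0.861, for ID4 HELZ at 0.826 and for SMAD7 PITPNB at 0.722. For ID3 it was SMAD6, followed by GATA5 at 0.813.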

How the data were processed

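Biotin-labelled RNA was hybridised to Illumina bead arrays. The authors deposited unnormalised probe intensity, background included, with a detection p-value per probe, and a processed intensity table whose method is unknown. Per the submitters' processing notes GenomeStudio was used, with the version not given in the sources used here. Per the labels' protocols RNA was amplified with 14 h of in vitro transcription. The deposited detection p-value runs in steps of 1 in 770. The unnormalised intensity was background corrected, quantile normalised and log2 transformed with limma's neqc (offset 16, limma 3.58.1, R 4.3.3). The brightest probe stood for a gene. Genes detected on at least 3 arrays of a fit were tested with lmFit and eBayes, and p-values were Benjamini-Hochberg adjusted over all tested genes, with a threshold of 0.05. All 4 arms of days 1 to 3 (12 arrays, 11514 genes) or days 4 to 8 (16 arrays, 12060 genes) entered a fit with day as a block, which is the shared time point in the labels. The fit of day 8 against day 1 had 28 arrays with arm as a block. Where an arm was detected on none of the arrays compared, a fold is a bound against the lowest signal detected per array. A limma p beside a bound was computed from the signals as read, background readings included, and does not test the bound. Where an arm was detected on some arrays, their number is given. Marker sums are linear normalised signals.

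All members were reported. Of each pathway list at most 3 genes a comparison were named, those past the threshold with the largest absolute difference, and likeness was taken as the 3 highest r. The members and lists were chosen with earlier results of these data known. Symbols came from the platform's annotation, in which 30113 probes have 1 symbol, 8 several and 17202 none, and 30074 matched RefSeq by gene ID. The steps were tested on simulated data: of 100 genes changed by a log2 of 1 in FW against FBW, 62 were called early and 79 late. The changed genes were drawn at random and got the same shift on every day, with independent normal noise. These shares therefore do not give the power for members whose differences varied over days. Nothing states that arrays came from separate cultures, and their number limits the precision.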

Additional observations from a re-analysis of the deposited data

Results flagged for a closer look

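The difference of an arm from FBW changed between days 1 to 3 and days 4 to 8 in 6 cases, by a limma test of the change itself that was chosen after seeing the data. For MSX1 in FB the late minus early change was 3.49 ± 0.83 (SE, limma adjusted p = 0.0133), from -5.63 to -2.15. For MSX2 in FB it was 3.06 ± 0.57 (limma adjusted p = 0.00344), from -1.69 to 1.37. For ID1 in FW it was 1.53 ± 0.50 (limma adjusted p = 0.0479), from -0.15 to 1.38. For SMAD9 in FW it was -0.75 ± 0.22 (limma adjusted p = 0.0277), from -0.25 to -1.01, with most FW days not detected and -0.61 with undetected signals held at the lowest detected one. For MSX1 in FW it was 3.22 ± 0.83 (limma adjusted p = 0.0166), from -5.63 to -2.41. For MSX2 in FW it was 3.44 ± 0.57 (limma adjusted p = 0.00114), from -2.13 to 1.31. With undetected signals held likewise, the MSX2 changes were 2.66 in FB and 2.84 in FW.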

How the results depend on the processing

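Of 86 member differences with a test, 39 passed the threshold, and 29 of these kept their call under every alternative other than leave-one-out. Late and whole-course counts of members stayed within 1.5 times of those reported under all settings run; the early counts did not. For FB on days 1 to 3 (1 member, 28 genes) the count was 0 with quantile normalisation alone (6 genes) and with only the arrays compared (1 gene). It was also 0 without the FBW arrays of days 3 and 6 (2 genes). It was 2 with median scaling (44 genes) or no detection filter (189 genes), and 5 with array weights (3648 genes). Leaving out a day gave 0 to 6, the 6 without day 1 (2757 genes). For FW (2 members, 105 genes) it was 1 with quantile normalisation (32 genes), with only the arrays compared (2 genes) and with no replicate block (40 genes). It was 0 without those FBW arrays (5 genes) and 5 with median scaling (213 genes) or array weights (2639 genes). Leaving out a day gave 0 to 6, the 6 without day 1 (2757 genes). For BW (0 members) leaving out a day gave 0 to 2, the 2 without day 1 (350 genes). For the BMP4 arms against FW (0 members) array weights gave 5 (651 genes) and leaving out a day 0 to 6, the 6 without day 1 (647 genes). With quantile normalisation the members 2-fold above day 0 in FB were 2 instead of 5, and those with all BMP4 arms 2-fold above FW were 3 instead of 5. For the late minus early change, leaving out a day gave 1 to 3 members in FB and 1 to 4 in FW, and array weights gave 1 in BW. ID4 in the BMP4 arms minus FW, days 1 to 3, ran from -0.74 without day 1 (limma adjusted p = 0.0351) to 0.59 without day 3, against 0.14. ID1 on day 8 minus day 1 ran from -0.66 without FW (limma adjusted p = 0.0405) to 0.36 without FBW, against 0.05. With no replicate block late calls were lost for MSX2 in FB (limma adjusted p = 0.0562) and FW (0.0611), BAMBI in FB (0.0727), SMAD9 in BW (0.102), and ID2 (0.0787) and BAMBI (0.169) in the BMP4 arms minus FW, and the early MSX2 call in FW was lost too (0.0774). The ID1 change in FW was lost with quantile normalisation (limma adjusted p = 0.0505), and the SMAD9 change with the authors' processed values (limma adjusted p = 0.0677). The cause was not tested. Dim signals limit SMAD9, and MSX1, MSX2 and ID4 where they were not detected.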
